A study of Mus musculus with 12 samples.

Results

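Kcnj2, Ros1, Edaradd, Igip, Gdap10 and Tmem89 are 6 genes of the 48526 measured in mouse intestinal epithelium whose counts were low or 0 in pulldowns of double-stranded RNA after deletion of Kat2a and Kat2b. They were chosen by their own pulldown counts: at or near the floor of 3 counts in the DKO (double knockout) libraries of 1 or both antibodies, against higher counts in control. The pulldown values of these genes, in control and in DKO, are therefore given as a description and carry no test. The description of the choice as genes with many control pulldown counts held for 4 of the 6. Kcnj2, Ros1, Edaradd and Igip had 128 to 409 counts in each control pulldown, while Gdap10 and Tmem89 had 10 to 29.

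The libraries came from 4 adult female mice aged 3 months. The 2 DKO mice received tamoxifen at 100 mg/kg by intraperitoneal injection on 4 successive days, which induced loss of KAT2A and KAT2B, and the 2 control mice received the ethanol and corn oil solvent alone. The labels call the material whole intestinal epithelial cells, and their protocol has it released with EDTA from the proximal small intestine 2 days after the treatment. Each mouse gave an input library and pulldowns with the antibodies J2 and K1, 12 libraries in 6 groups of 2. The alleles, the Cre driver and the alleles carried by the control mice are not given in the sources used here. Genotype and tamoxifen exposure changed together and cannot be told apart.

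KAT2A and KAT2B are related lysine acetyltransferases that acetylate histone tails at active genes as parts of larger coactivator complexes. J2 and K1 are monoclonal antibodies that bind the double helix of RNA with little regard to its sequence, so a pulldown collects transcripts that can pair with themselves or with a partner. The input library of the same animal gives the level of each RNA before the pulldown. In bulk samples, fewer cells of a type and less RNA per cell cannot be told apart.

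The counted depth bears on every low value here. Inputs held 10307281 to 11474107 gene counts, control pulldowns 13308021 to 16139531, and DKO pulldowns 5826361 and 2691285 with J2 and 5559033 and 2220291 with K1. A count of 3 equals 0.206 to 0.242 CPM (counts scaled to library size) in a control J2 library but 0.764 and 0.925 CPM in the DKO J2 libraries, and 0.712 and 1.36 CPM in the DKO K1 libraries. Reads aligned to several places, which were not assigned to genes, were 5.54% to 6.56% of reads in control pulldowns and 15.8% to 46.7% in DKO pulldowns. Summed markers of epithelium were 6901 to 7094 CPM in control input and 6298 to 7646 CPM in DKO input. Kat2b was lower in DKO input (log2 fold change -1.51, adjusted p = 6.31e-04) and Kat2a likewise (-0.88, adjusted p = 0.0205), with 84 and 148 Kat2a counts left in the DKO inputs.

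Sequence features of the transcripts were read from GENCODE M21, and 15046 of the 15088 genes tested in input had a transcript there. Perfect self-complementary arms are shown because an antibody to double-stranded RNA was used: each pair below is the longest perfect inverted repeat in the transcript, with arms in capitals and 5 flanking bases in lower case. Ros1 arms lie in the coding part and at its end, Edaradd arms in the 3′ untranslated part, and the Tmem89 arms in the coding part and the 3′ untranslated part. Gdap10 has no annotated coding part.
Ros1 arm 1: gaagaACTATTATTCAGAgcctt
Ros1 arm 2: atgtgTCTGAATAATAGTgtctc
Edaradd arm 1: tgcctTTAAAAAAAAAAAAAAAAAgcagg
Edaradd arm 2: cttttTTTTTTTTTTTTTTTTTAAtcaac
Gdap10 arm 1: atggcTGAGGAACACAGGAagttg
Gdap10 arm 2: caggcTCCTGTGTTCCTCAcagag
Tmem89 arm 1: atagcTGCAAGAACAGtctgg
Tmem89 arm 2: gtgacCTGTTCTTGCAtctcc

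The Ros1 arms are 13 bases long, a length that 25.0% of genes reach. Those of Edaradd are 19 bases, nearly all A against T, reached by 2.16% of genes, those of Gdap10 are 14 bases (13.1%), and those of Tmem89 are 11 bases (69.2%). The Kcnj2 transcript holds the longest pair, with arms of 32 bases that are not shown, a length that 0.359% of genes reach. Igip, whose sequence is not shown, has arms of 12 bases (45.8%). The median over all genes was 11 bases. The pair of genes with low control pulldown counts, Gdap10 and Tmem89, thus did not stand together by this measure, and a perfect repeat says nothing of whether the RNA folds that way.

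Promoter sequence is shown for Ros1 and Edaradd, the pair with the steepest fall in input, and for Kcnj2, whose input fell less. Each run is the 250 bases before the RefSeq start in GRCm38.p6, 5′ to 3′ on the gene's strand, with motif matches in capitals.
Ros1, chr10:52195245-52195494, minus strand: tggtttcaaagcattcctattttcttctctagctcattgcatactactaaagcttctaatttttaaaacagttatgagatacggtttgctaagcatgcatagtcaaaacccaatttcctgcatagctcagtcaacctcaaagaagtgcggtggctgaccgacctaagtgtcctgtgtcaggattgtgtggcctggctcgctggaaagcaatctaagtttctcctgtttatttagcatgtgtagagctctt
Edaradd, chr13:12520451-12520700, minus strand: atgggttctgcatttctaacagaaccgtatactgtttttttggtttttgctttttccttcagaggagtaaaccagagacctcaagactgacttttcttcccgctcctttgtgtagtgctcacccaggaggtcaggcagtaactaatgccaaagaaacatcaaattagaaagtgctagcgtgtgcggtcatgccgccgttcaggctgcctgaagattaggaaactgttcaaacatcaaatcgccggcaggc
Kcnj2, chr11:111065914-111066163, plus strand: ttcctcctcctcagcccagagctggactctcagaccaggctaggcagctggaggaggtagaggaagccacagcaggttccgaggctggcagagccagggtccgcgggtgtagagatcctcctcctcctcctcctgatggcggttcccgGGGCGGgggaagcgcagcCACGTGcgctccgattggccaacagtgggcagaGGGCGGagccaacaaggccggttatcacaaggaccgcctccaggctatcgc

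The motifs searched on both strands were the GC box (GGGCGG, held by 33.0% of 32536 promoters of this length), the E-box (CACGTG, 6.04%), the TATA box (TATAAA, 12.3%), the CDX motif (TTTATNG, 9.74%), the HNF4 motif (0.387%) and an interferon response motif (2.98%). The Kcnj2 window holds 2 GC boxes and 1 E-box, at 102, 51 and 84 bases before the start by their first base. The Ros1, Edaradd and Tmem89 windows hold none of these letters. The Kcnj2 window also has 14 CpG pairs and 65.6% GC, against 4 and 41.6% for Ros1 and 8 and 46.0% for Edaradd, where the median promoter has 6 and 52.4%. Tmem89, with an input log2 fold change of -0.70, has 4 CpG pairs and 57.6% GC in its window. Gdap10, which rose in input, has 1 and 41.2%, with 1 TATA box. Its window, 32823866 to 32824115, lies before a RefSeq start but inside the GENCODE gene, 32821872 to 32826904. It is thus not the sequence before the GENCODE start. Whether these values go with the change in input was not tested.

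Kcnj2 (ENSMUSG00000041695.2, GRCm38 chromosome 11, 111066164 to 111076821, plus strand) has a 5444-base transcript in 2 exons, of which 68.9% is 3′ untranslated. Ros1 (ENSMUSG00000019893.11, chromosome 10, 52045721 to 52195244, minus strand) has 44 exons and 7401 bases, nearly all coding. Edaradd (ENSMUSG00000095105.1, chromosome 13, 12472632 to 12520438, minus strand) has 6668 bases in 6 exons, 83.3% of them 3′ untranslated. These transcripts are longer than 85.3%, 93.9% and 91.6% of tested genes. Igip (ENSMUSG00000110185.1, chromosome 18, 36298679 to 36301517, plus strand) is a single exon of 2839 bases with a coding part of 162 bases, and its GC content of 37.6% is above that of only 2.13% of genes. Tmem89 (ENSMUSG00000025652.6, chromosome 9, 108914619 to 108915563, plus strand) is a single exon of 945 bases, longer than 10.5% of genes, at 57.0% GC. Gdap10 (ENSMUSG00000096954.1, chromosome 12, 32821872 to 32826904, plus strand) is a 5003-base noncoding RNA that lies wholly inside an intron of Nampt, on the same strand. The flanking Nampt exons end at 32820909 and start at 32830167, so reads of unspliced Nampt RNA and of Gdap10 cannot be told apart. None of the 6 transcripts matched another gene at 97% identity over 100 bases or more.

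The choice of genes did not use their level of RNA in input. It did use pulldowns of the same 4 animals, and a pulldown draws on the RNA in input. The choice could therefore favour genes lower in DKO input, so the counts below are not independent of it. In input, 5 of the 6 genes were lower in DKO and 1 was higher, each past the threshold of an adjusted p under 0.05 (edgeR quasi-likelihood test, 4 libraries). Among all 15088 genes tested, 17.1% were called lower and 18.8% higher. The median log2 fold change of the 6 was -1.25, against -0.00 over all genes. In CPM, both DKO inputs lay below both control inputs for 5 genes (38.9% of all genes) and above them for Gdap10 (34.0%). The replicates are separate mice, 2 for each genotype, so each value rests on 4 animals.

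Ros1, a receptor tyrosine kinase of the insulin receptor group, had 9.14 and 8.57 CPM in the control inputs and 1.42 and 0.661 CPM in the DKO inputs. Edaradd, the death-domain adaptor that links the ectodysplasin receptor to NF-kB, had 3.66 and 4.89 CPM in control and 0.583 and 0.440 CPM in DKO. Both fell about equally: Ros1 by a log2 fold change of -3.06 (SE 0.34, adjusted p = 6.50e-04) and Edaradd by -3.01 (SE 0.37, adjusted p = 9.68e-04). The DKO inputs still held 17 and 9 Ros1 counts and 7 and 6 Edaradd counts, above the floor. Both calls stood under all 10 alternatives tried.

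Igip encodes a small secreted peptide known for promoting IgA production by B cells. Its input level was 4.85 and 5.18 CPM in control and 1.25 and 1.76 CPM in DKO, a log2 fold change of -1.68 (SE 0.29, adjusted p = 0.00395). This call also stood under all 10 alternatives. Kcnj2 encodes an inward rectifier potassium channel that helps to set the resting membrane potential. It had 11.2 and 10.3 CPM in control inputs and 5.16 and 6.68 CPM in DKO inputs (-0.81, SE 0.21, adjusted p = 0.0219). Without control replicate 1 the Kcnj2 adjusted p was 0.100, and with DESeq2 it was 0.0624.

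Tmem89, an uncharacterised membrane protein gene, had 9.30 and 9.65 CPM in control inputs and 6.41 and 4.99 CPM in DKO inputs (-0.70, SE 0.21, adjusted p = 0.0391). Its groups do not overlap, yet the call was lost under 5 of 10 alternatives, among them DESeq2 (adjusted p = 0.145) and each of 3 fits with a library left out. Gdap10 moved the other way, with 16.1 and 16.5 CPM in control inputs and 30.6 and 22.7 CPM in DKO inputs (0.75, SE 0.17, adjusted p = 0.0134). Nampt, the host gene, which encodes an enzyme of NAD salvage, rose in the same inputs by 1.31 (SE 0.17, adjusted p = 0.00134). In the single fit of all 12 libraries the Gdap10 adjusted p was 0.342.

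**Figure D1:**
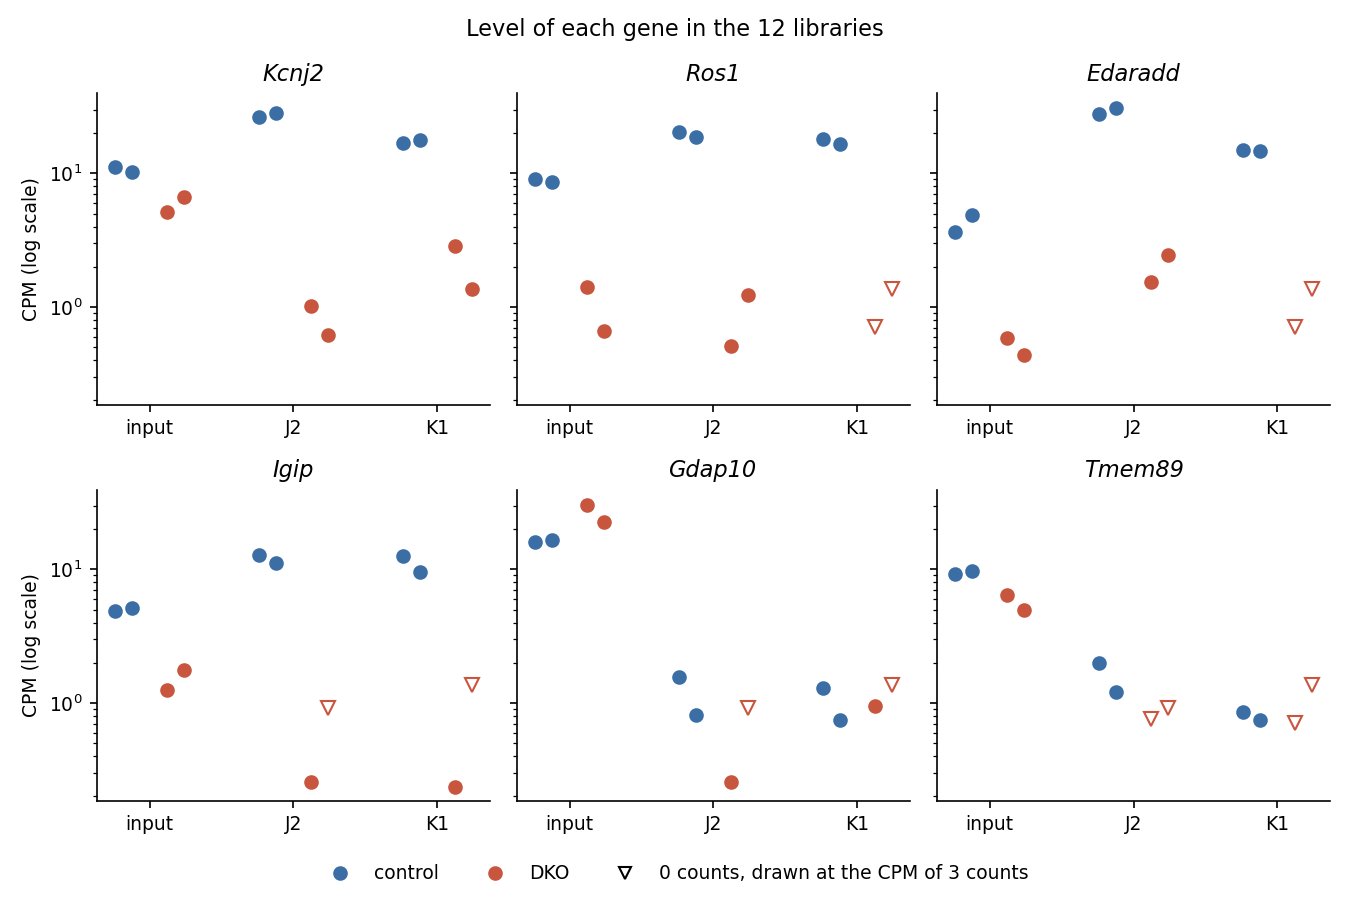
Level of each gene in CPM (log axis) in the 12 libraries, with control in blue and DKO in red and 1 point for each library. Open triangles mark libraries with 0 counts, drawn at the CPM of 3 counts. Control J2 and K1 points lie above control input for Kcnj2, Ros1, Edaradd and Igip and below it for Gdap10 and Tmem89.

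**Figure D2:**
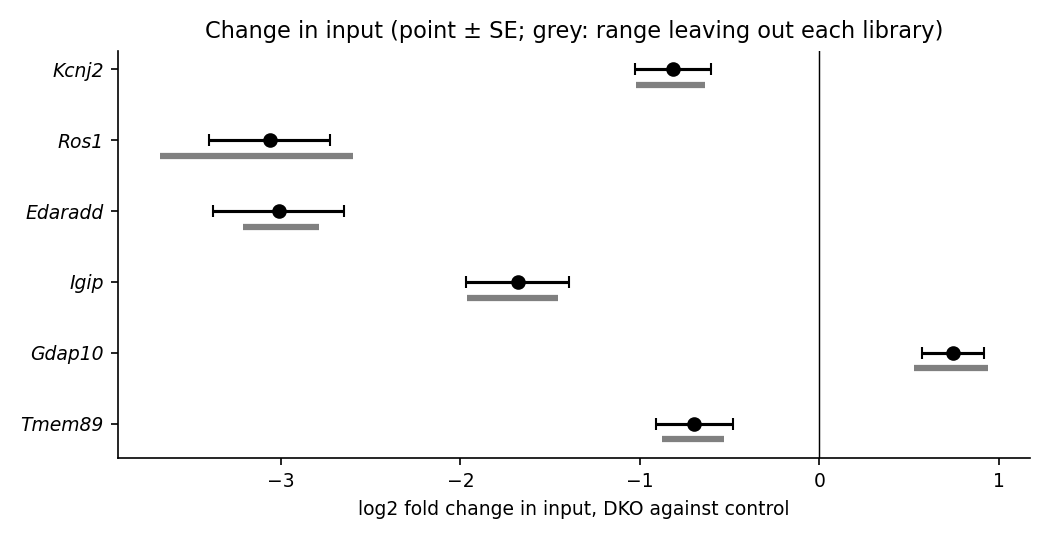
Log2 fold change in input, DKO against control, with its SE as the bar and, in grey, the range when each library was left out in turn. Ros1 and Edaradd lie near -3, Igip at -1.68, Kcnj2 and Tmem89 at -0.81 and -0.70, and Gdap10 alone lies above 0.

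Markers of other cells moved in input as well, and their part in these changes was not tested. The summed level of 10 leukocyte markers ranged from 60.6 to 71.5 CPM in control inputs and from 42.1 to 49.0 CPM in DKO inputs. Of the 8 tested 4 fell and 2 rose, where 17.1% of all genes were called lower and 18.8% higher. The same shares apply to the other marker lists. Of 8 epithelial markers 1 rose and 0 fell. For tuft cells the sum of 4 markers was 43.0 to 47.9 CPM in control and 93.2 to 115 CPM in DKO (2 rose), and for enteroendocrine cells it was 128 to 143 CPM and 172 to 219 CPM (3 of 4 rose). Endothelial markers summed to 2.54 to 5.76 CPM in control inputs, with Kdr and Emcn at 0, and to 2.13 to 3.00 CPM in DKO. Fibroblast and muscle markers gave 0.954 to 4.82 and 3.38 to 4.66 CPM, and those of neurons and glia 0.874 to 0.936 and 0.514 to 0.999 CPM. Of 3 markers of testis, Tnp1 and Odf1 were at 0 in every input. The other, Prm1, was at 0 in control inputs and reached 0.0734 CPM in 1 DKO input.

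The control pulldowns separate the 6 genes into a group of 4 and a group of 2. Log2 CPM of a pulldown minus that of the input of the same mouse is called enrichment here. In the 2 control mice it was 1.23 and 1.45 with J2 and 0.58 and 0.77 with K1 for Kcnj2. It was 1.13 and 1.11 with J2 and 0.98 and 0.93 with K1 for Ros1, and 1.37 and 1.09 with J2 and 1.33 and 0.85 with K1 for Igip. These values are all above 0.

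Edaradd had the highest control enrichment of the 6 with both antibodies, at 2.87 and 2.62 with J2 and 1.97 and 1.56 with K1. Genes were ranked by the log2 ratio of pulldown to input from counts pooled over the control mice. Control pulldown counts entered the choice of the 6 genes, so their ranks are a description. By this ratio Edaradd lay above 99.2% of the 15088 genes with J2 and above 97.4% with K1. The other genes of this group lay above 85.7% to 89.2% with J2 and 75.4% to 88.7% with K1. Gdap10 had -3.20 and -4.05 with J2 and -3.45 and -4.15 with K1, above only 1.01% and 2.56% of genes. Tmem89 had -2.12 and -2.80 with J2 and -3.17 and -3.39 with K1, above 4.35% and 3.78%. For these 2 genes, little RNA was in the control pulldowns to be lost.

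In J2 pulldowns, Kcnj2 had 387 and 351 counts in the control mice (26.5 and 28.4 CPM) and 4 and 2 counts in DKO (1.02 and 0.617 CPM). Ros1 had 296 and 231 counts in control (20.3 and 18.7 CPM) and 2 and 4 in DKO (0.509 and 1.23 CPM). Edaradd had 409 and 384 in control (28.0 and 31.0 CPM) and 6 and 8 in DKO (1.53 and 2.47 CPM). All DKO values of these 3 genes lie below all control values. Igip had 188 and 139 counts in control (12.9 and 11.2 CPM) and 1 and 0 in DKO. Gdap10 went from 23 and 10 counts to 1 and 0, and Tmem89 from 29 and 15 to no count. In CPM, DKO was below control without overlap for 6 of 6 genes, as it was for 36.9% of genes tested in J2. From pooled counts, J2 was lower in DKO by 32.7-fold for Kcnj2 (95% counting interval 14.96 to 89.4), 23.4-fold for Ros1 (10.7 to 63.9) and 15.1-fold for Edaradd (8.93 to 27.7). With a single DKO count, the ratio for Igip was 87.0 with an interval from 15.5 to 3445, and that for Gdap10 was 8.78 with an interval from 1.47 to 357. Tmem89, with no DKO count, had a bound of 3.90-fold lower against 3 counts over the group, with a counting interval that starts at 3.04. Without DKO mouse 1 the log2 ratio was a bound of -3.71 for Igip (-6.44 with both mice), -0.40 for Gdap10 (-3.13) and -0.82 for Tmem89 (-1.96). For Ros1 it ranged from -5.26 to -3.99 with a library left out.

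In K1 pulldowns, Kcnj2 had 274 and 238 counts in control (16.9 and 17.7 CPM) and 12 and 3 in DKO (2.85 and 1.36 CPM). Ros1 had 295 and 222 in control (18.2 and 16.5 CPM), and Edaradd had 241 and 199 (14.8 and 14.8 CPM). Neither had a count in either DKO K1 library. Igip had 203 and 128 counts in control (12.5 and 9.53 CPM) and 1 and 0 in DKO. Tmem89 went from 14 and 10 counts to no count, and Gdap10 from 21 and 10 to 4 and 0. DKO lay below control without overlap for 5 of 6 genes, as for 42.3% of all genes tested, and the Gdap10 groups overlap. Kcnj2 was 7.39-fold lower in DKO (4.44 to 13.3), Ros1 at least 37.3-fold lower and Edaradd at least 31.8-fold lower against 3 counts over the group. The counting intervals of these 2 bounds start at 30.2 and 25.7. On the log2 scale the bounds were -5.22 and -4.99, and they shrank to -4.49 and -4.25 with a floor of 5 counts and to -3.68 and -3.45 without DKO mouse 1. The ratio for Igip was 71.7 with an interval from 12.8 to 2840. Without DKO mouse 1 it was a bound of -3.04 on the log2 scale, against -6.16 with both mice, and that for Kcnj2 was -3.67 against -2.89.

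Depth limits what the K1 values of the sparse pair can show. Tmem89 had 0.862 and 0.744 CPM in the control K1 libraries, a level at which the shallower DKO library would hold under 3 counts. A loss of Tmem89 from K1 was thus not detectable at this depth beyond a bound of 1.73-fold, whose counting interval starts at 1.30. For Gdap10 the K1 ratio of control over DKO was 1.68, with an interval from 0.593 to 6.55 that includes 1. Intervals and bounds cover counting error only.

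**Figure D3:**
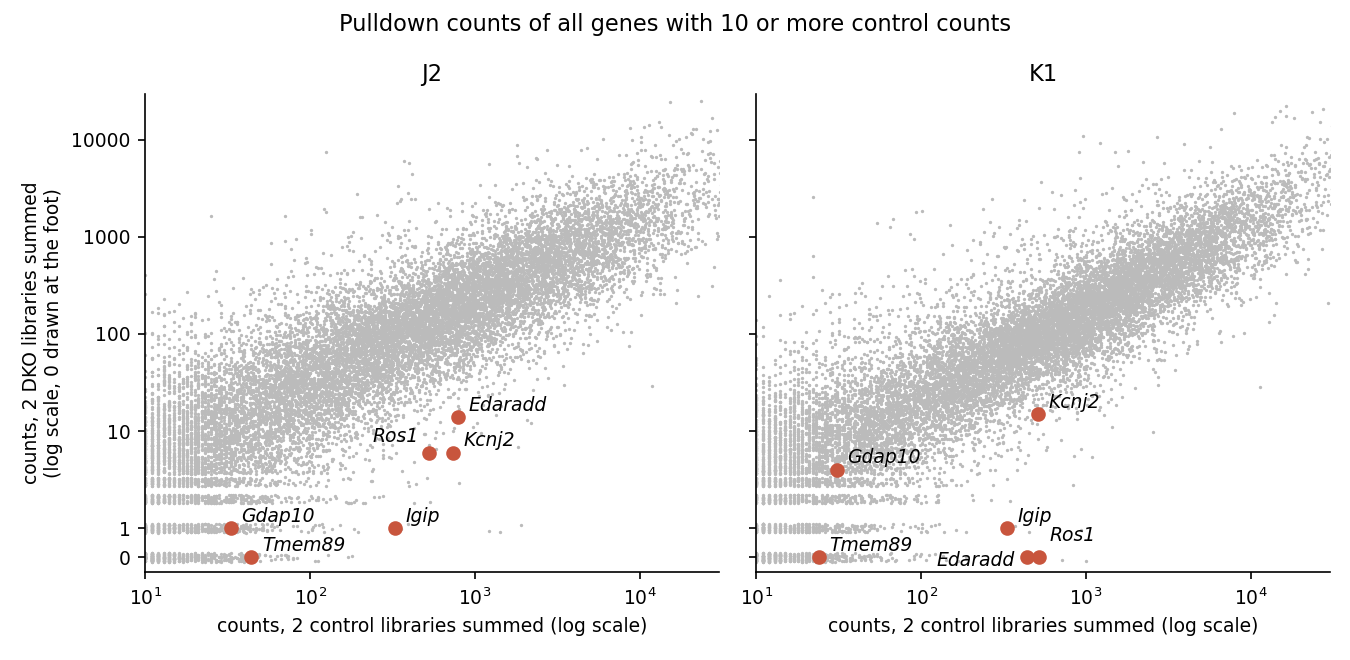
Counts of every gene with 10 or more control counts, control libraries summed (x) against DKO libraries summed (y), log axes, with 0 drawn at the foot and grey points spread slightly on y to show overlap. The named genes are in red. Kcnj2, Ros1, Edaradd and Igip lie well below the band of genes with like control counts, while Gdap10 and Tmem89 sit among many genes of low count.

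How rare such counts are depends on the control count. Of 9605 genes with 50 or more counts in both control J2 libraries, 60 (0.625%) were at 3 counts or fewer in both DKO J2 libraries, and in K1 it was 52 of 9906 (0.525%). Igip met this in both antibodies, and Ros1 and Edaradd met it in K1. Kcnj2 met it in neither, with 4 counts in 1 DKO J2 library and 12 in 1 DKO K1 library. With at least 1 DKO library at 3 counts or fewer, the number was 230 of 9605 genes in J2 and 285 of 9906 in K1. Kcnj2 is among these with both antibodies. Of genes with 10 to 29 counts in both control libraries, 29.5% reached the floor in both DKO J2 libraries and 33.3% in both DKO K1 libraries. Gdap10 and Tmem89 in J2, and Tmem89 in K1, belong to these. At this control level, at least 1 DKO library was at the floor for 960 of 1673 genes in J2 and 891 of 1400 in K1. Next outside the floor in J2 were Kcnj2, Ros1 and Ces1g, the last with 136 and 194 control counts and 4 and 2 in DKO. In K1 they were Slc5a4a (269 and 309 against 3 and 4), Paqr9 (207 and 192 against 3 and 4) and Camk4 (235 and 153 against 4 and 3).

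The differences in input and in pulldown can be set side by side. For each gene, 2 reference values were computed for the DKO pulldowns: the counts at the same share of the library as in the control pulldown, and the counts if the DKO input had been enriched as control input was. For Kcnj2 in J2 these were 196 and 109 counts, and 6 were found, which is 5.49% of the value that allows for input. In K1 they were 111 and 61.7 counts, and 15 were found. For Igip they were 87.0 and 26.3 counts in J2 and 71.7 and 21.7 in K1, and 1 was found in each. The counts found are the ones that chose the genes, so these shares are a description.

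From pooled counts, the log2 ratio of DKO to control was -0.85 in input and -5.03 in J2 for Kcnj2, and -1.72 and -6.44 for Igip. For Ros1 it was -3.12 in input and -4.55 in J2, and for Edaradd -3.09 and -3.91. With each library left out in turn, the J2 ratio less the input ratio ranged from -2.62 to -0.24 for Ros1 (main value -1.42) and from -1.38 to -0.29 for Edaradd (-0.83), the value nearest 0 being without DKO mouse 1 for both. How the J2 difference divides between input and pulldown thus rests on single libraries. Ros1 in J2 would have had 140 counts at the control share but 16.1 after allowing for input, and 6 were found (interval 2.20 to 13.1). Edaradd would have had 211 and 24.8, and 14 were found (interval 7.65 to 23.5), which is 56.4% of the value that allows for input. That value itself rests on 13 counts in the DKO inputs, so the 14 counts found are not shown to differ from it. In the DKO mice Edaradd was still enriched in J2, at 1.15 and 2.06, below the control values of 2.87 and 2.62. Ros1 enrichment in J2 was -1.19 in DKO mouse 1 and 0.74 in DKO mouse 2, so these mice lie on either side of 0, and the pooled ratio turned from -0.28 to 0.90 without DKO mouse 1.

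With K1, both genes were at 0 where input allowed for 12.9 counts of Ros1 and 11.2 of Edaradd. Edaradd RNA thus was present in J2 pulldowns of both DKO mice and uncounted in their K1 pulldowns, whose depths were close to those of J2. The difference of enrichment between genotypes was -0.83 in J2 for Edaradd and a bound of -1.90 in K1, and whether the antibodies differ was not tested. This K1 bound shrank to -1.17 with a floor of 5 counts and to -0.16 without DKO mouse 1. For Ros1 the difference of enrichment was -1.42 in J2 and a bound of -2.10 in K1. The corresponding differences for Kcnj2 were -4.19 in J2 and -2.04 in K1, and for Igip -4.72 and -4.44. Leaving out DKO mouse 1 gave -1.53 in K1 and -2.20 in J2 for Igip, both bounds with no count left, and -2.99 in K1 for Kcnj2, which was -1.54 without DKO mouse 2.

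Gdap10 is the gene whose input rose while its pulldown counts were lower. Allowing for its higher input, 14.2 counts would have been in the DKO J2 libraries and 10.9 in K1, and 1 and 4 were found. The exons of Nampt, counted apart from it, kept many pulldown counts. With J2 the control mice gave 1118 and 829 counts of Nampt and the DKO mice 367 and 123, a log2 fold change of -0.10 (adjusted p = 0.891). Tmem89 would have had 6.98 counts in J2 and 3.10 in K1 after allowing for input, and none was found. Slc26a6 ends 1570 bases before Tmem89 on the same strand and encodes an anion exchanger. With J2 it gave 4930 and 4317 counts from the control mice, and 2817 and 564 from the DKO mice. Scaled for depth, its log2 fold change in J2 was 0.39 (adjusted p = 0.720).

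**Figure D4:**
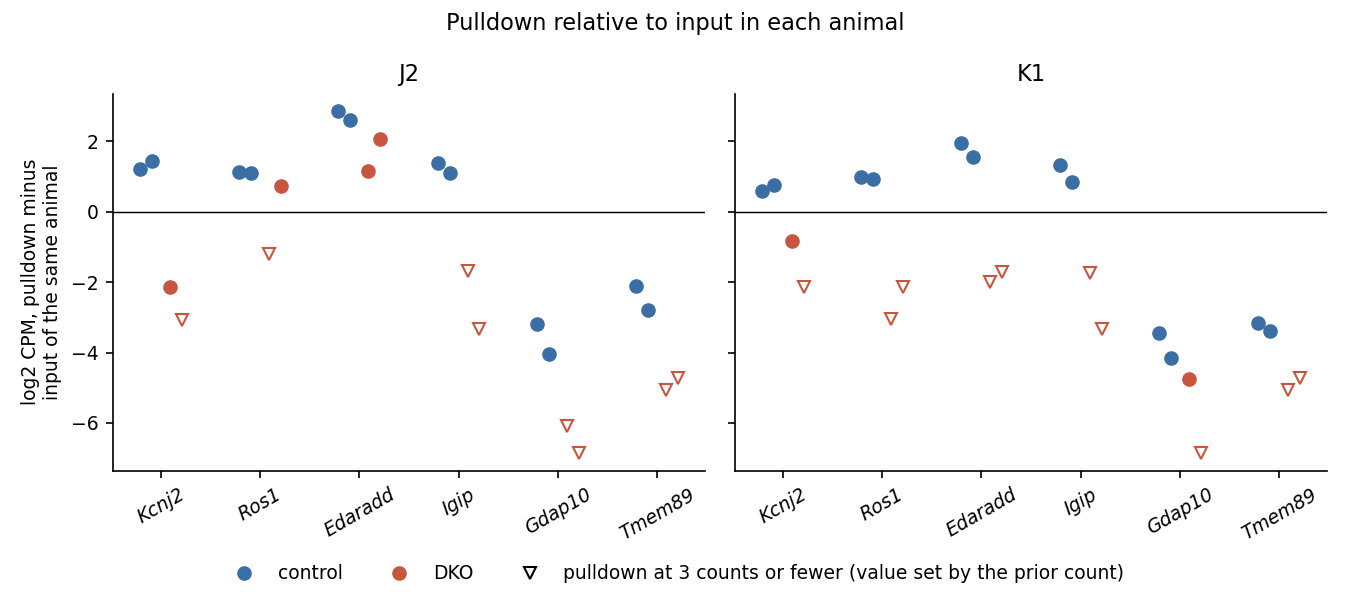
Enrichment of each gene in each mouse, as log2 CPM of the pulldown minus log2 CPM of the input of that mouse, for J2 and K1. Triangles mark pulldowns at 3 counts or fewer, whose position the prior count of 2 sets. Control values of the 4 leftmost genes lie above 0, and Edaradd in J2 is the only gene with both DKO values above 0.

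**Figure D5:**
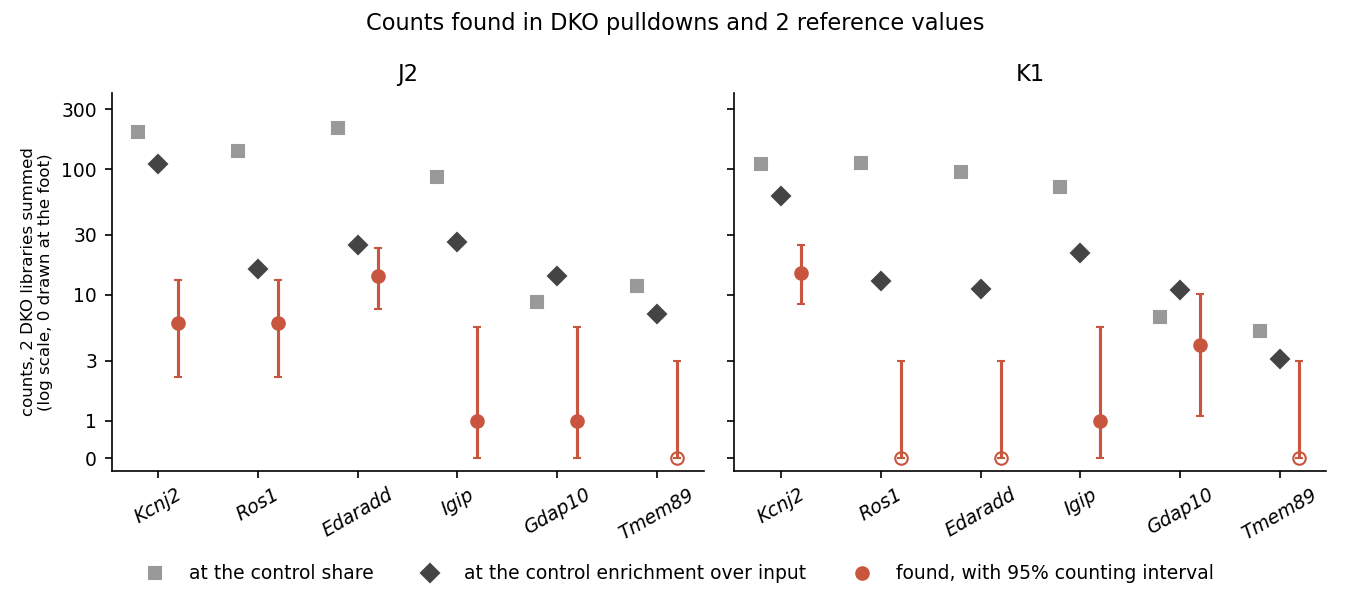
Counts found in the DKO pulldowns (red, 2 libraries summed, 95% counting interval, or up to 3 counts where none was found), beside the counts at the control share (squares) and at the control enrichment over DKO input (diamonds), log axis with 0 at the foot. For Ros1 and Edaradd the diamonds lie far below the squares, for Gdap10 above them.

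In DKO pulldowns, markers of fibroblasts and muscle had higher sums than in control pulldowns. Their summed level was 2.60 to 19.3 CPM in control J2 and 24.04 to 173 CPM in DKO J2, and 2.65 to 38.6 CPM in control K1 and 76.9 to 202 CPM in DKO K1, with Des at 0 in the last. Leukocyte markers summed to 43.7 to 46.0 CPM in control J2 and 54.7 to 93.4 CPM in DKO J2, and to 38.6 to 43.2 and 58.1 to 61.0 CPM in K1. Enteroendocrine sums were higher too, at 42.9 to 47.0 and 102 to 181 CPM in J2 and 59.6 to 80.2 and 165.5 to 258 CPM in K1. Epithelial sums were 4800.5 to 5128 and 3895 to 12917 CPM in J2, and 7437 to 9106 and 6719 to 14801 CPM in K1. Those of tuft cells, endothelium, and neurons and glia overlapped between genotypes with both antibodies. The part of these values, of the lower depth and of the multiply aligned reads in the low counts of the 6 genes was not tested.

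The genes were compared with relatives and partners in lists. Of 14 other inward rectifier channels of the Kcnj family, 2 were counted highly enough to test in input, and none passed: Kcnj11 had a log2 fold change of 1.35 (adjusted p = 0.0814) and Kcnj13 of -0.59 (adjusted p = 0.259). None was counted highly enough to test in J2 or K1. Kcnj16, the neighbour 38196 bases before Kcnj2, had 0 to 10 counts in the inputs. Kcnj2 was therefore the only member of the family with over 100 counts in any library.

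Of 9 kinases and partners related to Ros1, 6 were tested in input and 3 fell, where 17.1% of all genes were called lower: Igf1r, the receptor for insulin-like growth factor (-1.90, adjusted p = 5.72e-04), Insrr, an alkali-sensing receptor (-1.20, adjusted p = 0.0198), and Insr, the insulin receptor (-0.66, adjusted p = 0.00566). The phosphatases Ptpn6 (0.02) and Ptpn11 (0.23) did not pass. In pulldowns, Igf1r was called lower in J2 (-2.12, adjusted p = 0.0346), where 12.2% of genes were called, and in K1 (-2.95, adjusted p = 0.00354), where 27.1% were. With J2 the control mice gave 503 and 384 counts of Igf1r, and the DKO mice 34 and 19. Nell2, a known ligand of Ros1, and its relative Nell1 had at most 2 counts in any library.

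Of 11 genes from ectodysplasin to NF-kB, 9 were tested in input, 6 rose and none fell, where 18.8% of all genes were called higher and 17.1% lower. Eda2r, the second ectodysplasin receptor, rose from 6 and 9 to 77 and 140 counts (3.91, adjusted p = 4.35e-04), and Rela, an NF-kB subunit, rose by 1.19 (adjusted p = 0.00111). Nfkbia, the NF-kB inhibitor (1.13, adjusted p = 0.0122), and Tab2, an adaptor of the TAK1 kinase (0.98, adjusted p = 0.00113), also rose. Edar, the receptor that Edaradd binds, had 0 to 3 counts in the inputs and Eda, its ligand, 0 to 4. In DKO pulldowns Eda2r was higher with J2 (3.69, adjusted p = 0.0308) and K1 (3.20, adjusted p = 0.00712), as was Nfkbia (2.13 and 1.79). Map3k7, a kinase of the pathway, was lower in both (-1.74 and -1.31), and Chuk was lower in K1 (-0.88).

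Of 7 genes of IgA supply and transport, listed for Igip, all were tested in input and 3 fell, where 17.1% of all genes were called lower. Pigr, which carries IgA across the epithelium, fell by a log2 fold change of -1.62 (adjusted p = 6.81e-04), from 71403 and 76873 counts to 20798 and 24683. Ccl28, which attracts IgA-secreting cells, fell by -0.95 (adjusted p = 0.00340), and Tnfsf13, a B-cell survival factor, by -0.88 (adjusted p = 0.0166). Igha, the IgA heavy chain, gave 77 and 148 counts in the control inputs against 335 and 159 in the DKO inputs (1.26, adjusted p = 0.05002), short of the threshold. Ccl28 was lower in both pulldowns as well (J2 -3.69, adjusted p = 0.0291, and K1 -2.60, adjusted p = 0.00573). The J2 counts of Ccl28 were 1441 and 900 from the control mice and 37 and 11 from the DKO mice. Igha was called higher in K1 (2.94, adjusted p = 0.0395). The control mice gave 370 and 407 counts there. The DKO mice, with shallower libraries, gave 1428 and 73, so the size of the rise differed widely between them. Of 3 genes named for ganglioside-induced differentiation like Gdap10, Gdap2 was tested and rose in input (0.82, adjusted p = 0.00412).

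Neighbouring genes differed in pattern. Pura, 6144 bases before Igip on the same strand, fell less in input (-0.53, adjusted p = 0.0130) and kept 110 and 172 counts in DKO J2. Lgals8, 7688 bases from Edaradd and encoding a galectin, rose in input (1.23, adjusted p = 0.00108) and had 375 and 595 counts in DKO J2. Ero1lb, 45436 bases to the other side of Edaradd, fell in input (-1.07, adjusted p = 0.00340) and had 35 and 17 counts in DKO J2. Dcbld1, 38375 bases from Ros1, had a log2 fold change of 0.06 (adjusted p = 0.779) and 145 and 62 counts in DKO J2. Slc26a6, before Tmem89, had -0.38 (adjusted p = 0.0557).

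Over the 12 libraries, log2 CPM of the 6 genes gave these likenesses as Pearson correlations, which describe libraries that share animals and depth. The pulldowns that chose the genes are among these libraries, so the choice itself could raise r between the 6 genes. DKO pulldown values at or near 0 counts also depend on the prior count. Kcnj2 and Igip had r = 0.97, Ros1 and Edaradd r = 0.95, and Gdap10 and Tmem89 r = 0.92. Within the group of 4 the other pairs were Ros1 and Igip (0.92), Kcnj2 and Ros1 (0.83), Edaradd and Igip (0.82) and Kcnj2 and Edaradd (0.73). Between that group and Gdap10 or Tmem89, r ran from -0.01 for Edaradd and Gdap10 to 0.63 for Igip and Tmem89. Among 10892 genes with a mean of 20 counts or more, Ros1 was most like Cyp39a1, a hydroxylase of bile acid synthesis (r = 0.987). Cyp39a1 had 45 and 37 counts in control inputs, 5 and 4 in DKO inputs, 131 and 112 in control J2, 1 and 1 in DKO J2 and none in DKO K1. Igip was most like Ppip5k2 (0.996), Edaradd most like Pskh1 (0.977), Kcnj2 most like Rplp0 (0.982), Gdap10 most like B2m (0.990) and Tmem89 most like Hepacam2 (0.990). The correlation does not measure the size of a change, and these genes were not at the floor. In DKO J2, Ppip5k2 kept 249 and 161 counts, Pskh1 69 and 54, and Rplp0 514 and 335. Hepacam2 and B2m were, like their partners, lower in control pulldowns than in input, with 155 and 133 counts of Hepacam2 in control J2 against 372 and 430 in input.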

How the data were processed

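Each of the 12 deposited files lists whole-number read counts per gene, made by the authors without regard to strand, per the labels. The submitters' processing notes name STAR 2.7.10b, UMI-tools 1.1.4, HTSeq 2.0.2 and the build mm10 (GRCm38.p4), with no role or order. Whether molecular identifiers were collapsed is not given in the sources used here. Antisense and overlapping reads cannot be separated. Reads outside genes (6.76% to 27.0%), ambiguous reads and reads with several alignments (5.54% to 46.7%) stayed out of library sizes.

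DKO was compared with control within input, J2 and K1, 4 libraries each, by edgeR 4.0.16 (quasi-likelihood test, TMM, genes kept by filterByExpr at a minimum of 10 counts, p adjusted by Benjamini-Hochberg, threshold 0.05), the source of every adjusted p unless DESeq2 1.42.0 is named. All 6 genes passed the filter in input, 5 in J2 (not Gdap10) and 4 in K1 (neither Gdap10 nor Tmem89). CPM used TMM over all 12 libraries and log2 CPM a prior count of 2. Ratios of pooled counts have 95% Clopper-Pearson intervals. Bounds are against 3 counts over the group. Sequences came from GENCODE M21 and RefSeq (5 of the 6 genes matched a promoter), and near-identical copies were sought with blastn 2.17.0. The model was tested on simulated data. The genes, lists and tests were chosen with earlier results of these data known. Named from the lists were at most 4 genes each, by the size of change among those past the threshold. Other list genes named beside them were chosen after their values were seen.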

Additional observations from a re-analysis of the deposited data

Results flagged for a closer look

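Reads aligned to several places, which no gene count includes, made up a larger share of the DKO pulldowns than of any control pulldown. They were 15.83% and 29.5% of reads in DKO J2 replicates 1 and 2 and 25.86% and 46.71% in DKO K1 replicates 1 and 2. Control pulldowns held 5.54% to 6.56%, and inputs 6.97% to 8.05%.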

How the results depend on the processing

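In input, calls for Ros1, Edaradd and Igip stood under all 10 alternatives. Kcnj2 missed the threshold with DESeq2 (-0.82) and in the fit of all 12 libraries (-0.86), and ranged from -1.02 to -0.64 with a library left out. Tmem89 missed it with DESeq2 (-0.70) and in the fit of all 12 libraries (-0.73), and ranged from -0.88 to -0.53. Gdap10 missed it in the fit of all 12 libraries (0.71). The cause was not tested. The number of genes called was 5421 in input, 1609 in J2 and 3489 in K1. In the fit of all 12 libraries it was 1675 in input and 5993 in J2. In J2 it was 2751 with DESeq2 and 4273 without a filter, and it ranged from 177 to 8635 with a library left out. In K1 that range was 1150 to 5819. With library size as the only scaling, the share of calls that were higher went from 52.4% to 42.1% in input, from 49.5% to 32.6% in J2 and from 48.6% to 27.4% in K1, and the median of all genes moved to -0.13, -0.07 and -0.40 on the log2 scale.

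Same-numbered control and DKO libraries are different mice, and their deviations correlated at 0.03 in input, -0.11 in J2 and -0.12 in K1. With the replicate block 5731, 2263 and 3383 genes were called, and no call of the 6 genes in input changed. With crossed numbers as the block, chosen after seeing the data, 2635 were called in J2 and 3877 in K1.

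Of 288 recomputed descriptive values 14 changed sign. With a library left out, Ros1 in DKO against input ranged from -1.48 to 0.90 in J2 and, as a bound, from -0.99 to 1.04 in K1, and its K1 difference of enrichment from -2.11 to 0.059. The bound for Edaradd in DKO K1 against input ranged from 0.29 to 1.62 and was 0.62 with a floor of 5 counts. In K1, DKO against control ranged from -1.06 to 0.38 for Gdap10 and from -0.89 to 0.75 for Tmem89. The difference of enrichment of Tmem89 ranged from -1.53 to 0.11 in J2 and from -0.17 to 1.67 in K1, where it was 0.13 with RLE scaling and 0.69 with a floor of 5 counts. In each case the highest value is that without DKO replicate 1, the deeper DKO library. Bounds above 0 give no direction. The shallow DKO pulldowns limit all of these.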
